A study of Mus musculus with 20 samples.

Results

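The *Zfp* genes analyzed here are those whose symbol is Zfp followed by a number and whose mean level over all 20 livers was at least 0.5 FPKM (fragments per kilobase of exon, scaled to the depth of each library). Members were thus selected on their mean measured level, and by that rule 225 of the 329 *Zfp* names in the expression table were kept, out of 36128 gene names in all. A further 103 *Zfp* names lay under the limit and *Zfp809* was left out by the rule. Because the level chose the members, the level itself is given below as a description. Just under the limit were *Zfp472* at 0.497 FPKM, *Zfp97* at 0.499 and *Zfp14* at 0.499, and just above it *Zfp607* at 0.501, *Zfp2* at 0.509 and *Zfp345* at 0.516. RNA-seq of polyadenylated liver RNA was carried out on untreated mice of 8 weeks of age of 2 inbred strains, C57BL/6J (below B6) and the wild-derived CAST/EiJ (below CAST), with 5 males and 5 females of each and 1 mouse per library. Groups were taken from the sample titles, since the strain field of the labels contradicts the titles for B6 females as well as CAST males.

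Zinc finger proteins of the C2H2 kind fold around zinc ions, and each finger of a tandem array contacts a few bases of DNA or RNA. A large share of the mouse *Zfp* genes also encode a KRAB box, which recruits TRIM28 (KAP1) and, through it, the histone H3K9 methyltransferase SETDB1 to silence the bound DNA, most often remnants of retroelements. These KRAB genes lie in clusters that differ between mouse strains. In liver, KRAB genes of a chromosome 13 cluster, the regulator of sex-limitation (*Rsl*) genes, are known for restraining male-biased expression in females. Other *Zfp* genes have unrelated roles in RNA decay, ribosome quality control, ubiquitin transfer or conventional promoter binding, so the shared prefix does not name 1 function. In these data 114 of the 223 members with a transcript in the mouse annotation carried KRAB box letters, 210 carried at least 1 C2H2 finger, and the median member carried 10 fingers. Of the members, 54 lay on chromosome 7, 28 on chromosome 17, 18 on chromosome 8 and 15 on chromosome 13.

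Before any strain comparison, the gene names of the CAST values need describing, since they move with most strain results on the *Zfp* genes. The names can be sorted alphabetically in 2 ways, bare or with a closing “_” sign as in the table, and the second places *Zfp362* ahead of *Zfp36*. The 2 orders put 5455 of the 36128 names in different places, and 204 of the 225 members were among them. Values deposited for CAST under the name at a given place of the bare order matched the B6 values of the name at that place of the other order. For example, *Zfp91*, a ubiquitin ligase, had 1551 to 3734 reads in the 10 B6 livers but 0 to 4 reads in the 10 CAST livers under its own name. Under the adjacent name *Zfp90*, the CAST livers had 1168 to 4840 reads while the B6 livers had 14 to 42. The mRNA decay factor *Zfp36* (tristetraprolin) likewise had 665 to 1959 reads in B6 and 0 to 6 in CAST under its own name, with 538 to 3336 CAST reads standing under *Zfp367*.

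Outside the *Zfp* family, *Trim28* had 782 to 1751 reads in every B6 liver and 0 in every CAST liver as named. When each CAST row was given the name at its place in the other order (re-pairing), *Trim28* had 578 to 2492 CAST reads. Over the 204 members that move, the correlation across genes of mean log2 level between B6 and CAST was −0.326 with the deposited names, and it was 0.946 for the 189 of them at or above 1 CPM (count scaled to library depth) in the mean of either strain after re-pairing. The members were selected on the mean of the deposited values, so that a name high in 1 strain only could enter. Over all names that move, selected on no *Zfp* rule, the correlation was −0.036 across 2383 names as deposited and 0.881 across 1945 after re-pairing at the same limit of 1 CPM, against 0.896 for the 11295 names in the same place. For the 21 members in the same place it was 0.957, and none of these differed more than 2-fold. Of the members that move, 74.5% differed more than 2-fold between strain means as deposited and 4.76% after re-pairing. How the names came to differ was not tested. Both sets of values are therefore given, and B6 values are the same in each.

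**Figure D1:**
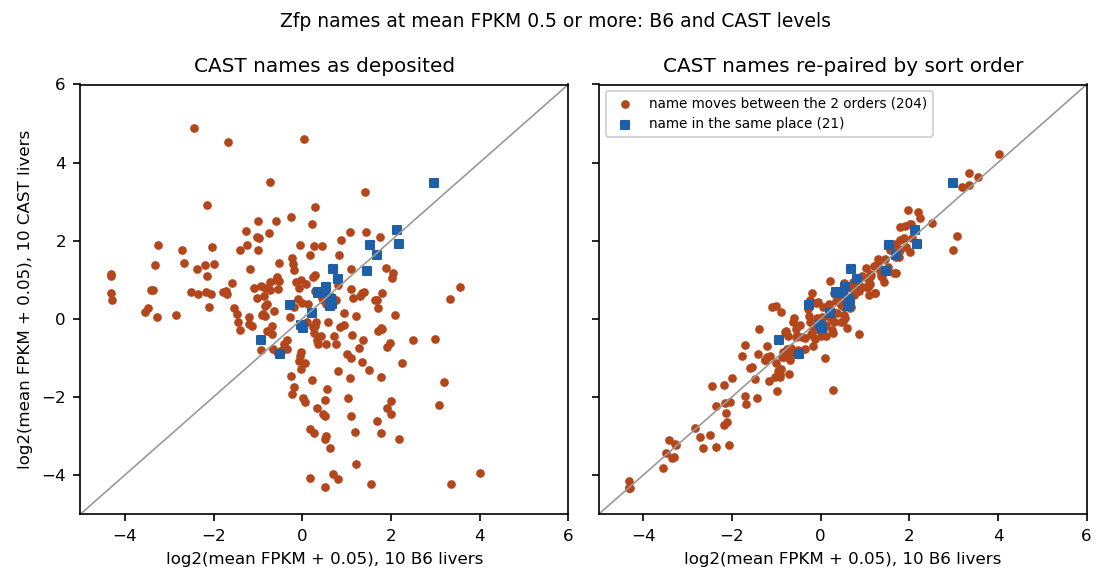
Mean level of the 225 *Zfp* names in the 10 B6 livers (x axis) and the 10 CAST livers (y axis), both as log2(mean FPKM + 0.05), with CAST names as deposited on the left and re-paired on the right. The 204 names whose place differs between the 2 orders (circles) scatter on the left and lie along the line of equal level on the right, where the 21 names in the same place (squares) lie in both panels.

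With re-paired names 190 *Zfp* genes reached the same mean of 0.5 FPKM, of which 173 were also members as deposited, 52 members fell under the limit and 17 names entered. Of these 190 genes, 176 reached 0.5 FPKM in the mean of each strain, compared with 123 of the 225 as deposited. The 190 genes are called re-paired members below. Their median level was similar in the groups, at 1.28 FPKM for males and 1.29 for females of B6, and 1.38 for males and 1.23 for females of CAST. The typical spread between the 5 livers of a group was small, with a median coefficient of variation of 12.7% to 13.7% across the groups. Libraries held 7969482 to 35328573 counted reads, and the *Zfp* members took 0.306% to 0.387% of them after re-pairing.

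The livers showed hepatocyte markers in all groups. Their sum over 8 markers spanned 20108.5 to 21263 FPKM for males and 25117.1 to 30442.5 for females of B6. For CAST it spanned 16926.3 to 18916 in males and 20290.8 to 25995.5 in females. Kupffer cell and red cell markers also differed between groups. The summed markers of the other listed cell types overlapped between the strains within each sex. Summed Kupffer cell markers (8 of 9 listed genes found, all above 0 in some liver) spanned 15.7 to 30.2 FPKM for males and 36.5 to 43.3 for females of B6, against 5.23 to 14.3 and 8.48 to 27.8 for those of CAST. The red cell gene *Alas2* spanned 26.9 to 36.5 FPKM in B6 males and 1.09 to 5.42 in the other groups, while *Hba-a1* and *Hbb-b1* were listed at 0 in every liver. In bulk liver, fewer cells of a type and less RNA per cell cannot be told apart. The part of these markers in the *Zfp* differences below was not tested.

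Of the 8 most highly expressed *Zfp* genes, 5 carried no KRAB letters. After re-pairing, the highest mean level belonged to *Zfp36*, at 15.03 ± 6.69 FPKM (SD, n = 5) for males and 17.2 ± 7.45 for females of B6, and 15.7 ± 2.31 for males and 21.7 ± 3.46 for females of CAST. The B6 spread came from single livers, with 1 male at 26.9 and 2 females at 21.2 and 28.3 while the other B6 livers lay between 11.1 and 13.6. *Zfp207*, a kinetochore and spindle protein, lay at 11.4 to 13.1 FPKM in the group means, and *Zfp706* at 9.10 to 13.99. *Zfp91* lay at 9.79 to 11.2 FPKM and *Zfp598*, a ubiquitin ligase that acts on collided ribosomes, at 8.73 to 10.7. The KRAB-like genes among the top 8 were *Zfp445*, *Zfp825* and *Zfp707*. The levels of *Zfp207*, *Zfp706*, *Zfp91* and *Zfp598* overlap in their liver ranges and their order is not resolved.

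As deposited, 151 of 224 tested members differed between strains at a fold above 2 and an adjusted p under 0.05 (edgeR quasi-likelihood test, Benjamini-Hochberg over all genes), 71 higher in B6 and 80 higher in CAST. The background was 28.9% of 25779 genes tested, 16.9% higher in B6 and 12% higher in CAST, and 21% of the protein-coding genes at 0.5 FPKM or more. All 151 called names were among those that move. The 12 names furthest toward B6 had log2 differences (B6 minus CAST) of 5.07 to 11.42 as deposited and of −0.58 to 0.94 once re-paired, and included *Zfp91*, *Zfp36*, *Zfp710*, *Zfp281*, *Zfp292*, *Zfp574*, *Zfp60* and *Zfp598*. The 12 furthest toward CAST had −11.74 to −4.93 as deposited and included *Zfp616*, *Zfp365*, *Zfp648*, *Zfp105*, *Zfp90*, *Zfp287*, *Zfp462* and *Zfp202*. After re-pairing, 10 of those 12 could be tested and 9 lay within 2-fold. The other was *Zfp365*, which after re-pairing had 0 reads in every B6 liver and 0 to 6 in the CAST livers. *Zfp616*, *Zfp365*, *Zfp648* and *Zfp957* had at most 3 reads in every B6 liver as deposited, and *Zfp281* and *Zfp710* at most 3 in every CAST liver. Against that floor of 3 reads per liver, the deposited values give lower bounds of at least 46.1-fold for *Zfp957* to at least 175-fold for *Zfp281*. All of these names are among those that move, and each entered through the strain where it was high. The bounds thus describe the deposited names only. After re-pairing, *Zfp281* had a mean of 2.89 FPKM in B6 and 3.33 in CAST. None of the re-paired members was at the floor in all livers of a strain.

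**Figure D2:**
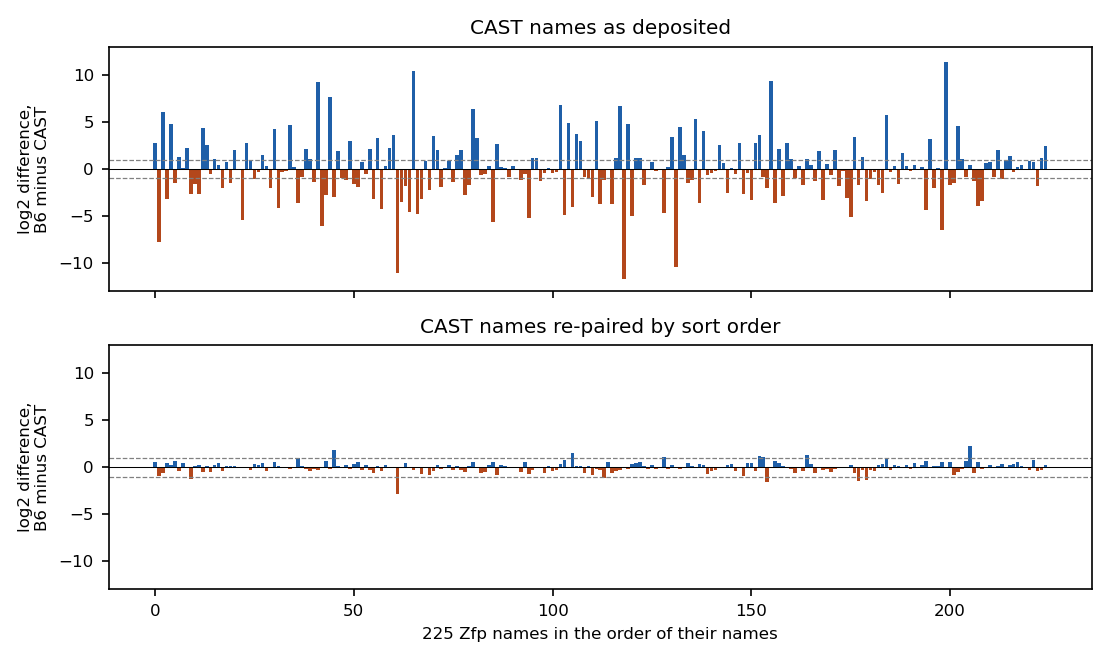
Log2 difference in level (B6 minus CAST, edgeR) of the 225 *Zfp* names, along the order of the names, with CAST names as deposited (upper panel) and re-paired (lower panel). Names that could not be tested have no bar. Dashed lines mark 2-fold, which 151 called names exceeded above and 13 below.

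With re-paired names the strains differed beyond 2-fold in few *Zfp* genes. Of the 190 re-paired members, 11 differed beyond 2-fold, 4 higher in B6 and 7 higher in CAST, against a background of 21.9% of all 25569 genes tested (13.3% higher in B6, 8.52% higher in CAST) and 9.19% of the protein-coding genes at 0.5 FPKM or more. Over the original 225 names the count was 13, of which 7 were higher in B6. Without a fold threshold, 106 of the 190 passed the adjusted p, 44 higher in B6 and 62 higher in CAST. The same held for 45.7% of all genes tested (23.2% higher in B6, 22.5% higher in CAST) and 60% of the protein-coding genes at 0.5 FPKM or more, so this count is near the background. In size, 150 of the 190 genes differed by under 0.5 on the log2 scale, 29 by 0.5 to 1 and 11 by more. The median absolute log2 difference was 0.25 over the 190, and 0.26 over all protein-coding genes at 0.5 FPKM or more. Of the 176 genes at 0.5 FPKM or more in both strains, 2 were called, *Zfp707* and *Zfp750*, so the other 9 entered with a mean under 0.5 FPKM in 1 strain and had a lower level there by construction. Within each sex the count was 11 in males, against 16.7% of all genes, and 11 in females, against 17.3%.

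The largest difference was that of *Zfp872*, a KRAB-like gene with 12 fingers at chr9:22001511-22005068 (mm9, + strand). In B6 males the FPKM was 0.104, 0.106, 0.184, 0.133 and 0.131, and in B6 females 0.121, 0.0405, 0.0830, 0.0535 and 0.0305. CAST males gave 3.26, 1.84, 4.42, 3.56 and 2.40, and CAST females 2.16, 0.912, 1.66, 1.64 and 1.49. Every CAST liver lay above every B6 liver, and the male mean exceeded the female mean in both strains. The log2 difference (B6 minus CAST) was −4.63 ± 0.21 (SE), a fold of 24.8, with an adjusted p of 3.53e-16. It rested on 3 to 21 reads per B6 liver, and limma on log2(FPKM + 1) gave −1.54. The neighbours of *Zfp872* in the order of names, *Zfp871* and *Zfp873*, differed by −0.01 and 0.16 after re-pairing, and all 50-base stretches of its transcript were unique among annotated coding transcripts. As deposited, *Zfp872* had a mean under the limit and was no member.

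The widest difference in the other direction was that of *Zfp938*, a KRAB-like gene with 10 fingers at chr10:81687595-81704025 (mm9, − strand). Its FPKM was 1.35, 1.03, 1.18, 1.01 and 1.25 for males of B6, and for females 1.14, 1.18, 1.28, 1.09 and 1.13. Males of CAST gave 0.204, 0.152, 0.326, 0.238 and 0.302, and females of CAST 0.217, 0.275, 0.144, 0.191 and 0.294. The strains did not overlap, and the sexes did not separate in either strain. The log2 difference was 2.29 ± 0.14, a fold of 4.88 (adjusted p of 4.13e-13), compared with 0.45 as deposited. Its neighbours in the order of names, *Zfp937* and *Zfp939*, differed by −0.27 and −1.27 after re-pairing, the latter a call in the opposite direction. The B6 mean of *Zfp938*, 1.16 FPKM, was close to the CAST mean of *Zfp939*, 1.15. The difference of *Zfp938* thus depends on the 2 names not being exchanged in 1 strain, which was not tested.

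The promoters of both genes, from 250 bases before to 50 after the start in RefSeq (GRCm38.p6 reference, a B6 sequence), are shown because the 2 genes carry the largest strain differences in either direction. Capitals mark CCAAT or its reverse complement ATTGG, a promoter element bound by NF-Y.
Zfp872, chr9:22187916-22188215, + strand: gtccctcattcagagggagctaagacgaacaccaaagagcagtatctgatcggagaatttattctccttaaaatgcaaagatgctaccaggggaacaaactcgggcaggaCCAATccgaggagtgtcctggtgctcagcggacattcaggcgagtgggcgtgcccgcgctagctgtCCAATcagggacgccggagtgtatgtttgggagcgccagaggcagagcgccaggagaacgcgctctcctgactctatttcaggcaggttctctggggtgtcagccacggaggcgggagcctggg
Zfp938, chr10:82241231-82241530, − strand: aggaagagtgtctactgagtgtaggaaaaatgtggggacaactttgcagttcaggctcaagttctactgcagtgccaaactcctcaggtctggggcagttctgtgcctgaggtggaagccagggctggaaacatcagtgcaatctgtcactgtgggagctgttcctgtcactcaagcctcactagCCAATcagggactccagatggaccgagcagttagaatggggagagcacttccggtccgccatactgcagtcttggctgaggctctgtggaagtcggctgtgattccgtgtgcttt

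The *Zfp872* window held the motif 2 times and the *Zfp938* window 1 time. It was present in 37.9% of 27025 promoter windows of the same length and in 81 of the 162 re-paired members with a window (50%). *Zfp872* had 17 CG dinucleotides and *Zfp938* had 5, against a median of 7 over all windows and 15 over those of the re-paired members. The CAST sequence of these windows was not used here.

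Among the other KRAB-like genes higher in CAST, *Zfp52* on chromosome 17 came next. Its FPKM was 0.0754 to 0.124 for males and 0.0659 to 0.178 for females of B6, against 1.15 to 1.70 and 0.985 to 1.47 for those of CAST. No CAST liver overlapped a B6 liver, and the log2 difference was −3.53 ± 0.14 (adjusted p of 2.93e-17). As deposited, the difference of *Zfp52* was −0.24. *Zfp709* and *Zfp791* on chromosome 8, *Zfp788* on chromosome 7 and *Zfp605* on chromosome 5 differed by −1.56, −1.33, −1.48 and −1.20, with adjusted p of 1.46e-14, 1.16e-07, 3.95e-12 and 1.91e-09. *Zfp939*, which lacks KRAB letters, differed by −1.27 (adjusted p of 9.58e-09), from group means of 0.456 and 0.533 FPKM for the sexes of B6 to 1.03 and 1.28 for those of CAST. *Zfp52* and *Zfp791* rested on few B6 reads, with 7 to 18 and 16 to 53 per liver.

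**Figure D3:**
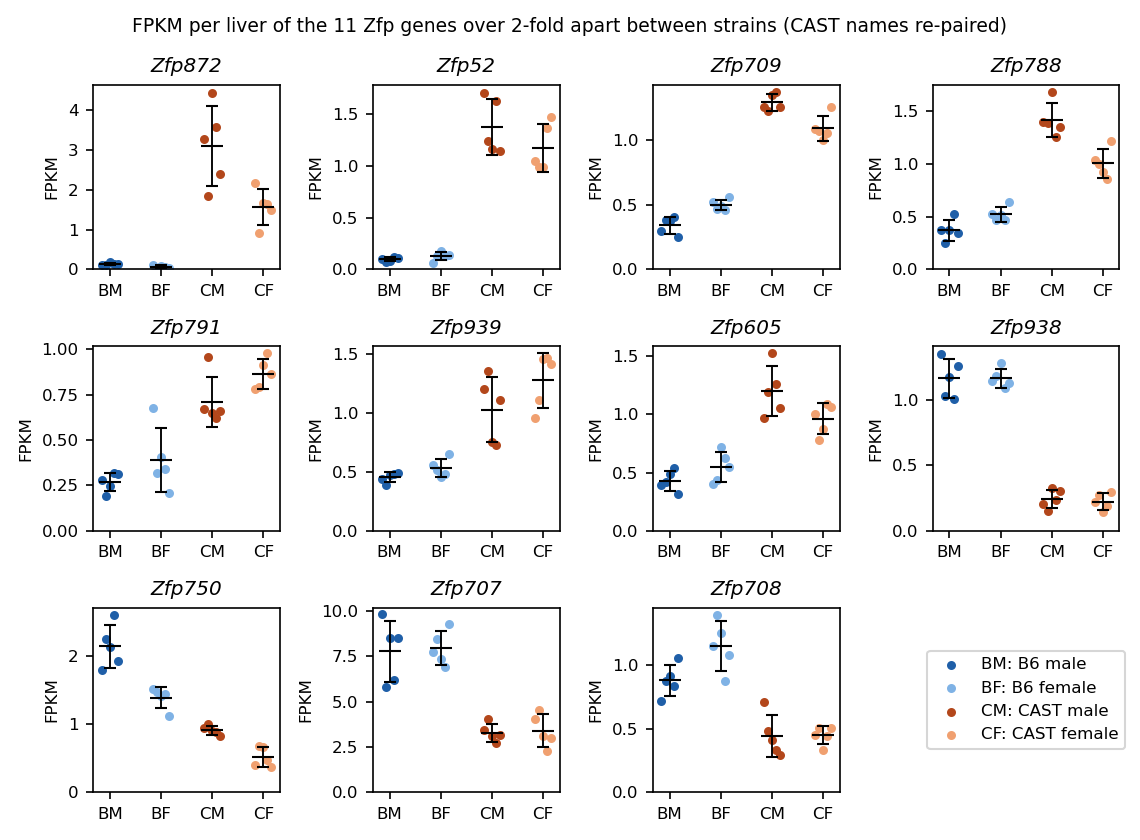
FPKM per liver of the 11 re-paired *Zfp* members called between strains, with 5 points per group and black bars for mean ± SD, each panel with its own axis from 0. The 7 genes from *Zfp872* to *Zfp605* are higher in CAST and the 4 from *Zfp938* to *Zfp708* are higher in B6.

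The other genes called were higher in B6. *Zfp707*, a KRAB-like gene on chromosome 15, was the most abundant gene called, at 7.77 ± 1.71 FPKM for males and 7.96 ± 0.943 for females of B6 against 3.29 ± 0.487 and 3.40 ± 0.897 for those of CAST (log2 difference 1.17 ± 0.11, adjusted p of 2.60e-09). Its lowest B6 liver, at 5.82, exceeded its highest CAST liver, at 4.54. *Zfp750*, known as a regulator of epidermal differentiation, is without KRAB letters and differed by 1.25 ± 0.11 (adjusted p of 2.92e-10). *Zfp708*, which binds RMER19B retroelements and is one of the *Rsl* names of chromosome 13, had 0.882 ± 0.124 FPKM for males and 1.15 ± 0.194 for females of B6 against 0.446 ± 0.164 and 0.449 ± 0.0710 for those of CAST. Its log2 difference was 1.13 ± 0.13 (adjusted p of 3.61e-08), whereas the deposited names gave −0.85, the opposite direction. In order of names *Zfp707*, *Zfp708* and *Zfp709* are adjacent, and the flanking names *Zfp706* and *Zfp710* differed by −0.46 and −0.04 after re-pairing. Of the 11 genes called, 4 thus stand in adjacent pairs with opposite directions. *Zfp708* had a mean of 1.02 FPKM in B6 and 0.448 in CAST, and *Zfp709* 0.420 and 1.19, so the level of each in B6 was close to that of the other in CAST. *Zfp938* had 1.16 and 0.234 and *Zfp939* 0.494 and 1.15, where B6 *Zfp938* was close to CAST *Zfp939*. Whether the names of such neighbours are exchanged in 1 strain was not tested. Of the transcript of *Zfp708*, 93.6% of 50-base stretches were unique.

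By structure, 9 of the 92 KRAB-like re-paired members and 2 of the 96 without KRAB letters were called between strains, against 9.19% of the protein-coding genes at 0.5 FPKM or more. Of the 9 KRAB-like genes, all but *Zfp707* had a mean under 0.5 FPKM in 1 strain and had thus entered through the other. Among the genes at 0.5 FPKM or more in both strains, 1 of 80 KRAB-like genes and 1 of 94 others were called, against 6.39% of the 9422 protein-coding genes under the same limit, with a median absolute log2 difference of 0.23 and 0.21 against 0.24. The 5 *Rsl* names among the re-paired members gave 1 call, *Zfp708*. For *Zfp595*, another *Rsl* name, the log2 difference was 0.13 (adjusted p of 0.297).

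The genes listed for guarding imprints and retroelements ranged from *Zfp445*, among the most abundant *Zfp* genes, to *Zfp57*, under 0.5 FPKM in the mean of each strain after re-pairing. *Zfp445*, which maintains imprints and keeps its place in both orders, had 6.78 to 11.96 FPKM for males and 5.84 to 6.75 for females of B6, and 10.5 to 14.1 for males and 7.70 to 11.3 for females of CAST. Its log2 difference was −0.56 ± 0.08 (adjusted p of 3.93e-06), higher in CAST but within 2-fold. *Zfp932*, a retroelement repressor, likewise differed by −0.53 (adjusted p of 1.01e-05) from means of 3.68 and 3.70 FPKM in B6 to 5.24 and 5.09 in CAST, and as deposited by 4.61. Only 54.9% of the 50-base stretches of its transcript were unique, and its counts are therefore uncertain. Of the 4 listed genes of this group, 2 were called after re-pairing, against 21.9% of all genes. They were *Zfp708* and *Zfp57*, both under 0.5 FPKM in CAST, and *Zfp57* was not a re-paired member.

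Of the 7 measured *Zfp* genes of RNA and ribosome biology, 0 were called after re-pairing by edgeR or DESeq2, with 5 at an unadjusted p under 0.05, and 5 were called as deposited. The shares of the expressed protein-coding genes called were 9.19% and 21%, and 65.5% of them had an unadjusted p under 0.05 after re-pairing. After re-pairing, 0 of 7 called and 5 of 7 at the unadjusted p are thus near the background. The 5 of 7 called as deposited lay above the deposited share of 21%. *Zfp106*, an RNA-binding protein, differed by −0.58 (adjusted p of 4.98e-07), and *Zfp593* and *Zfp622*, both ribosome maturation factors, by −0.59 and 0.45 (adjusted p of 0.000231 and 0.000198). *Zfp36* differed by −0.25 (adjusted p of 0.217) and *Zfp598* by −0.25 (adjusted p of 0.00769). *Zfp91* and *Zfp207* differed by −0.13 and −0.11 (adjusted p of 0.0502 and 0.0741). The deposited differences of *Zfp36*, *Zfp598* and *Zfp91* were 10.41, 5.07 and 11.42.

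Among 12 conventional DNA-binding *Zfp* genes, 0 were called by edgeR or DESeq2 after re-pairing and 8 were higher in B6 and 3 higher in CAST as deposited, against the same 9.19% and 21%. An unadjusted p under 0.05 was reached by 7 of them after re-pairing, and 5 passed the adjusted p at a smaller fold. Of the protein-coding genes at 0.5 FPKM or more, 65.5% reached that unadjusted p and 60% the adjusted p at any fold. *Zfp467* was the furthest apart, at 3.76 and 4.02 FPKM for the sexes of B6 (male, female) against 7.42 and 6.19 for those of CAST (log2 difference −0.85, adjusted p of 9.78e-10). *Zfp219* was higher in B6 by 0.47 (adjusted p of 2.80e-06). The GC-box binding *Zfp148* differed by 0.07 (adjusted p of 0.365). Of the 5 genes of corepressor complexes, 0 were called by either tool after re-pairing, 2 passed the adjusted p at a smaller fold and 4 had an unadjusted p under 0.05, against the same shares, with *Zfp217* higher in B6 by 0.27 (adjusted p of 0.0118) and *Zfp592* by 0.15 (adjusted p of 0.0358).

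Transcripts of the proteins that KRAB boxes recruit are given as the other side of the pathway. *Trim28* had 8.17 ± 0.834 FPKM for males and 8.44 ± 0.997 for females of B6, and 9.39 ± 0.720 for males and 8.17 ± 0.471 for females of CAST, with a log2 difference of −0.13 ± 0.06 (adjusted p of 0.0795). *Setdb1* had 3.21 and 3.14 FPKM for the sexes of B6 (male, female) against 3.09 and 2.50 for those of CAST (log2 difference 0.14, adjusted p of 0.0298). Of 36 silencing partners, 4 were called as deposited, *Trim28*, *Atf7ip*, *Atf7ip2* and *Suv39h2*, and 1 after re-pairing, against 28.9% and 21.9% of all genes. That gene, *Suv39h2*, is an H3K9 methyltransferase that lay under 0.15 FPKM in every liver, with a log2 difference of 1.07 ± 0.29 (adjusted p of 0.00400), and its call was lost without any 1 of 3 livers (B6 male 2, CAST male 4 or CAST female 4). The SETDB1 cofactor *Atf7ip* had a log2 difference of 7.42 as deposited and −0.06 (adjusted p of 0.605) after re-pairing.

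Sex differences above 2-fold were found for 1 *Zfp* gene in B6 and none in CAST by edgeR. In B6, 0 of 221 tested members passed a fold of 2 and an adjusted p under 0.05 by edgeR or DESeq2, while 39 had an unadjusted p under 0.05, as did 20.5% of all genes. Of the re-paired members 1 was called, *Zfp820*, against 2.4% of 25690 genes. Without the fold threshold 7 of the 190 passed in B6 (4 male-biased and 3 female-biased), against 7.55% of all genes. In CAST 0 of the 190 were called by edgeR or DESeq2 against 2.05% of 24722 genes, while 34 had an unadjusted p under 0.05, as did 17.9% of all genes. At the adjusted p alone 14 passed (10 male-biased, 4 female-biased), against 5.65%, and 18 of the 225 did with deposited names, with the same background. With replicate number as a block these counts of re-paired members rose to 12 in B6 and 22 in CAST, while those of all genes rose to 11.2% and 11.1%. Without the block, 15.6% of the genes kept by a filter on low counts passed in B6 and 11.7% in CAST.

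*Zfp820*, a KRAB-like gene of chromosome 17, was female-biased in B6. Males had 0.417, 0.355, 0.351, 0.419 and 0.322 FPKM and females 0.766, 0.738, 0.798, 0.866 and 1.09, so that the sexes did not overlap. The log2 difference (male minus female) was −1.17 ± 0.15 (adjusted p of 6.53e-05). In CAST the FPKM was 0.557, 0.606, 0.541, 0.733 and 0.507 in males and 0.690, 0.836, 0.594, 1.13 and 1.02 in females, and some livers of the 2 sexes overlapped. The CAST log2 difference was −0.59 ± 0.17 (adjusted p of 0.0501), and the test of the strain by sex interaction gave −0.58 (adjusted p of 0.216). The CAST adjusted p lay so near the threshold that 5 of 17 alternatives passed it. It was 0.00132 with replicate number as a block and 0.0299 with DESeq2, and 0.0379, 0.0379 and 0.0184 without CAST male 4, CAST female 1 or CAST female 3.

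Female bias was also found for *Zfp292*, a large transcription factor gene on chromosome 4. B6 males had 1.39, 1.15, 1.30, 1.32 and 1.30 FPKM and B6 females 1.62, 1.74, 2.06, 2.39 and 2.71. CAST males had 1.38, 1.18, 1.59, 1.48 and 1.24 and CAST females 2.65, 1.47, 1.81, 2.52 and 2.90. In B6 the sexes did not overlap, and in CAST 1 female lay within the male range. The log2 difference was −0.68 ± 0.12 in B6 (adjusted p of 0.00132) and −0.79 ± 0.14 in CAST (adjusted p of 0.00144). The CAST call was lost with limma on log2(FPKM + 0.1) and log2(FPKM + 1), at adjusted p of 0.0660 and 0.0846. Under the deposited name the CAST mean of *Zfp292* was 0.00874 FPKM.

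*Zfp750* was male-biased in both strains, by 0.64 ± 0.12 on the log2 scale in B6 (adjusted p of 0.00176) and 0.70 ± 0.18 in CAST (adjusted p of 0.0245). B6 males had 1.79 to 2.59 FPKM and B6 females 1.11 to 1.51, and CAST males had 0.820 to 1.01 and CAST females 0.368 to 0.685. The 4 groups did not overlap, and the level fell in the order B6 male, B6 female, CAST male, CAST female. The CAST call of *Zfp750* was lost without CAST male 2, CAST female 1 or CAST female 4, at adjusted p of 0.0625, 0.0590 and 0.0559. *Zfp704*, a member as deposited only, was female-biased by −0.70 in B6 (adjusted p of 0.00158) and by −0.54 in CAST after re-pairing (adjusted p of 0.0292), the latter lost in 9 of 17 alternatives.

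**Figure D4:**
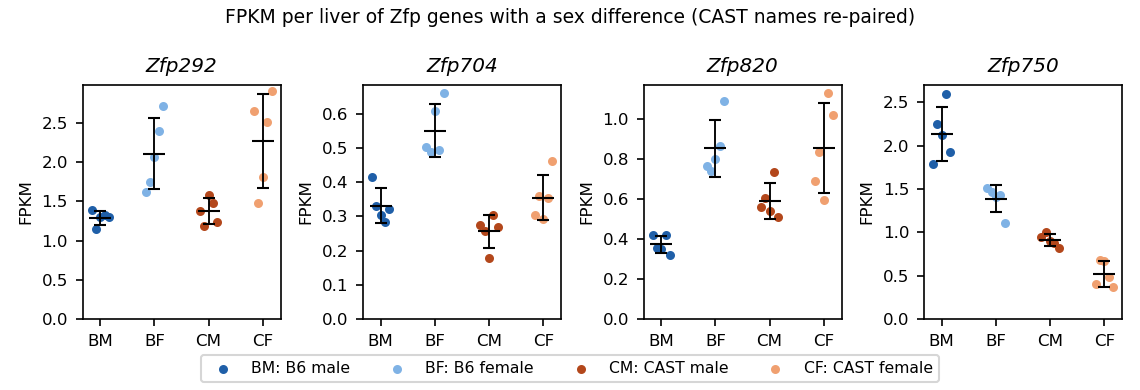
FPKM per liver of *Zfp292*, *Zfp704*, *Zfp820* and *Zfp750* in the 4 groups with CAST names re-paired, with 5 points per group and black bars for mean ± SD. The mean of the first 3 is higher in females of both strains and that of *Zfp750* in males of both, and the adjusted p of *Zfp820* in CAST was 0.0501.

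Other male-biased genes in B6 were the imprint regulator *Zfp445* (0.53, adjusted p of 0.00504), *Zfp746* (0.36, adjusted p of 0.0486) and *Zfp706* (0.30, adjusted p of 0.0186), and *Zfp277* was female-biased (−0.32, adjusted p of 0.0441). In CAST, *Zfp872* had the widest male bias (0.89 ± 0.21, adjusted p of 0.0149), and its B6 value was 1.00 (adjusted p of 0.133). *Zfp595*, of the *Rsl* names, was male-biased in CAST (0.67 ± 0.15, adjusted p of 0.00830) with a B6 value of 0.34 (adjusted p of 0.158). *Zfp36* was female-biased in CAST (−0.55 ± 0.12, adjusted p of 0.00827), and in B6 its value was −0.16 (adjusted p of 0.790).

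Since the B6 and CAST sex contrasts share no livers, their log2 differences can be set side by side. All 7 re-paired members that passed the adjusted p in B6 had the same sign in CAST after re-pairing, compared with 1 of 7 under the deposited names. The correlation across genes was 0.50 over 190 genes after re-pairing and −0.10 over 186 of them as deposited, where the genes are not independent replicates. Over the members as first chosen it was 0.24 after re-pairing and −0.10 as deposited, both over 221 genes, and 7 of the 9 that passed in B6 had the same sign in CAST after re-pairing, against 1 of 9 as deposited. *Zfp292* and *Zfp750* passed in both strains, although the CAST calls of both were lost under some settings given above.

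**Figure D5:**
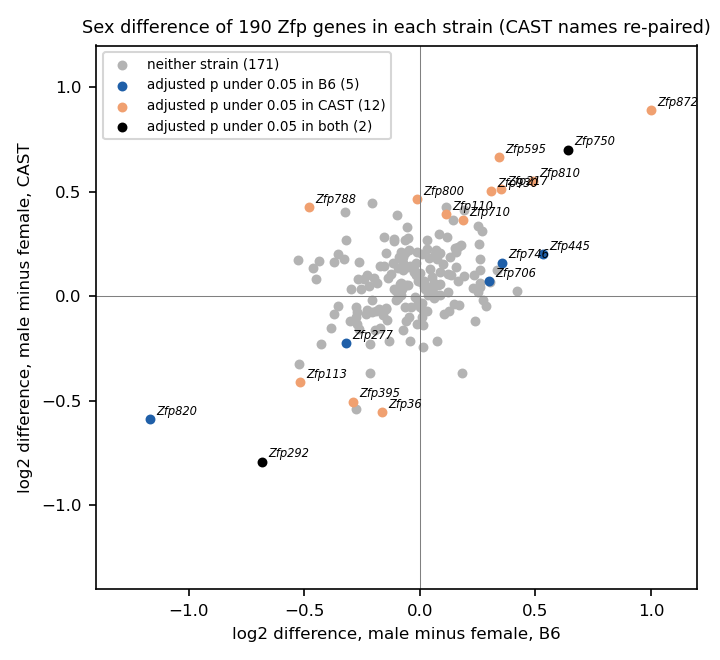
Log2 difference between males and females (edgeR) of the 190 re-paired *Zfp* members in B6 (x axis) and CAST (y axis), with genes at an adjusted p under 0.05 colored and named. The 7 genes that passed in B6 lie in the quadrants of equal sign, and *Zfp292* and *Zfp750* passed in both strains.

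The difference between the sex effects of the strains was tested by the interaction term. As deposited, 12 members had an adjusted p under 0.05, against 2.28% of genes, among them *Zfp277*, *Zfp513*, *Zfp709*, *Zfp704*, *Zfp367*, *Zfp7*, *Zfp748* and *Zfp81*. After re-pairing 2 of the 190 did, against 2.03% of genes, *Zfp788* and *Zfp709*. Both had a B6 mean under 0.5 FPKM, at 0.446 and 0.420, and entered through CAST. Whether the names *Zfp708* and *Zfp709* are exchanged in 1 strain was not tested. *Zfp788* had 0.371 ± 0.0986 FPKM for males and 0.521 ± 0.0694 for females of B6, but 1.41 ± 0.159 for males and 1.00 ± 0.136 for females of CAST. The CAST males and females did not overlap, while the B6 ranges did. Its male minus female value was −0.48 in B6 (adjusted p of 0.146) and 0.43 in CAST (adjusted p of 0.0290), and the interaction was −0.92 (adjusted p of 0.0143). For *Zfp709* the interaction was −0.71 (adjusted p of 0.0193), from −0.53 in B6 (adjusted p of 0.0610) and 0.17 in CAST (adjusted p of 0.368). It lost its call without B6 male 1 (adjusted p of 0.0584) or B6 female 5 (0.0518). Within the sexes, the strain difference of *Zfp788* was −1.94 in males and −1.02 in females, and that of *Zfp709* was −1.92 and −1.21.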

How the data were processed

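The authors aligned reads with TopHat2, B6 to mm9 and CAST to a CAST pseudo-genome made from mm9, and counted unique exon reads per gene with featureCounts. The deposited files hold raw counts per gene and FPKM per gene and liver. Columns of the authors' own edgeR fold changes and p-values were not used, nor were 24 other columns of per-sample values. Here counts were tested with edgeR 4.0.16 (TMM, quasi-likelihood) over all genes with a read, in 1 fit of 4 groups for strain and interaction and in 1 fit per strain for sex. A gene absent from 1 strain's count table was entered there with 0 reads if its FPKM was 0 in every liver of that strain, and was otherwise left out (2028 as deposited, 1921 re-paired). Re-paired FPKM were rescaled by the ratio of gene lengths implied by counts and FPKM. KRAB letters (7 of 17 positions) were searched in translated GENCODE transcripts of mm9. Both this limit and the re-pairing were chosen after the data were seen. Named genes were the 12 furthest apart in each direction, those called for sex or interaction, the 8 highest, genes at the floor, and genes of role lists. Members and lists were chosen with earlier results of these data known. Separate mice were sequenced. Livers were collected over several days, each with mice of all groups, but the day of each liver was not given in the sources used here and was not fitted. Alternatives were DESeq2 1.42.0, limma 3.58.1, other scalings and filters, and leaving out each liver. The fits were tested on simulated data.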

Additional observations from a re-analysis of the deposited data

Results flagged for a closer look

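With re-paired CAST names, single livers stood apart in 2 of 56 groups of 5 examined over 14 genes, and chance gives about 1 in 20. *Zfp36*, with the high single B6 livers given above, was not among the 14 genes. For *Zfp791* the highest CAST male had 0.956 FPKM, with the next at 0.668. For *Zfp750* the lowest B6 female had 1.11 FPKM, with the next at 1.41. The sex effect differed between strains by the interaction test for *Zfp788* (−0.92 on the log2 scale, adjusted p of 0.0143) and *Zfp709* (−0.708, adjusted p of 0.0193). Both genes had a B6 mean under 0.5 FPKM, and a possible exchange of names between *Zfp709* and its neighbour *Zfp708* was not tested.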

How the results depend on the processing

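The names of the CAST values changed the strain calls at a fold of 2 most. The counts for sex and for silencing partners changed more when the fold threshold was dropped. Called members went from 151 to 13 for the strain difference when the same names were re-paired, and 11 of the 190 re-paired members were called (154 to 12 and 11 in males, 147 to 14 and 11 in females). Interaction calls went from 12 to 3 and 2, silencing partners from 4 to 1, and B6 sex calls from 0 to 1 among the 190. Limma on log2(FPKM + 1), which shrinks low genes, gave 89, 96 and 90 strain calls (both sexes, males, females) as deposited and 3, 3 and 2 re-paired. Without the fold threshold 106, 71 and 82 re-paired members passed for strain (45.7%, 32.7% and 34.4% of all genes), 9 members (7 re-paired) in B6 and 18 (14 re-paired) in CAST for sex, and 14 (10 re-paired) of the 36 partners, against 50.3% (45.7%) of all genes. For the interaction DESeq2 gave 24 as deposited, and 5 re-paired, where the filter on low counts gave 4 and limma on log2(FPKM + 1) gave 6. Over all genes the interaction calls also rose, from 588 to 1161 as deposited and from 520 to 1037 re-paired with DESeq2, and to 686 and 689 re-paired with the other settings. Both limma settings gave 0 re-paired partners, and limma on log2(FPKM + 1) gave 0 re-paired B6 sex calls. A limit of 1 FPKM left 146 members and 0.5 FPKM in both strains left 123. The cause of these changes was not tested beyond the naming.

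Leaving out each liver gave 150 to 152 strain calls as deposited and 11 to 11 re-paired, 152 to 156 and 11 to 14 in males, 144 to 149 and 10 to 12 in females, 7 to 12 and 1 to 3 for the interaction (7 without CAST female 1), 0 to 0 for sex in B6 over the 225 members and 1 to 1 over the 190 re-paired, 0 to 1 in CAST under both namings, and 3 to 4 and 0 to 1 partners. The 11 genes called between strains kept an adjusted p under 0.05 and their direction in all 27 alternatives run on them, but with limma on log2(FPKM + 1) 8 of them lay under 2-fold, all but *Zfp872*, *Zfp52* and *Zfp707*. For sex in CAST, *Zfp704* lost its call in 9 of 17, *Zfp750* in 3 and *Zfp292* in 2, and *Zfp820* gained one in 5. With replicate number as a block, calls were 151 as deposited and 11 re-paired for strain, and none of these counts at a fold of 2 moved by over 1.5 times. At the adjusted p alone, sex calls rose from 7 to 12 re-paired members in B6 and from 14 to 22 in CAST, and from 1939 to 2889 and 1396 to 2754 genes in all. Correlations of the deviations of same-numbered livers averaged −0.069 to 0.103 over the pairs of groups, highest for the sexes of CAST, where 2 of 5 pairs were over 0.1 and 5 of 10 livers correlated best with their own number. Livers of different number averaged −0.026 for the sexes of CAST. No pair of groups had all 5 over 0.1, and the numbers were not used to pair the mice in the main fits. Whether they stand for a shared day or batch was not tested. Genes near 0.5 FPKM rested on few reads per liver, which limits what sizes of difference can be seen.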
